A study of Mus musculus with 12 samples.

Results

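The 32 genes described here are carried by monocytes, by interstitial macrophages or by alveolar macrophages of the lung. They were taken by symbol from a deposited count table of 52550 genes, where all 32 were found, and all 32 passed the filter on low counts that left 15885 genes for testing. The libraries came from whole lungs of 12 C57Bl/6J mice on postnatal day 5, with 4 groups of 3 mice and a library from each mouse. Wild-type (WT, Adm+/+) mice and Adm+/- mice, whose every cell has only 1 working copy of the adrenomedullin gene, received intraperitoneal PBS or LPS, an endotoxin of Escherichia coli that provokes inflammation. Each mouse had 3 injections a day apart, at 6 mg/kg for LPS, and the lung was removed 6 h after the final injection. Replicates carry the number of their library: 3, 4 and 5 are WT PBS, 9, 10 and 11 WT LPS, 6, 7 and 8 Adm+/- PBS, and 1, 2 and 12 Adm+/- LPS lungs, and values are given in that order. The Adm+/- line was made in another strain and then backcrossed to C57BL/6J, so DNA close to Adm can still be of the first strain. Of the 32 genes, Lyve1 lies closest to Adm, 220.8 kb away on chromosome 7 with 2 protein-coding genes between them.

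Alveolar macrophages live in the airspaces, clear surfactant and depend on the nuclear receptor PPAR-gamma. Interstitial macrophages sit in the walls around vessels and airways and carry scavenger receptors and lectins that take up ligands. Monocytes arrive from the blood during inflammation and can become macrophages. In newborn mice the alveolar population is still being established in the first days of life. A whole lung was sequenced, so fewer cells of a type and less RNA per cell cannot be told apart, and no level can be placed in a cell type.

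Total counts per library ranged from 22382535 to 38062873. WT PBS replicate 5 and Adm+/- PBS replicate 6 stood apart: the noncoding gene Gm26917 took 13.3% to 16.6% of their counts, against 5.42% to 7.4% in the other libraries. The 10 fibroblast markers summed to 47292 CPM in the first and 32019 CPM in the second, against 14680 to 21202 CPM elsewhere, and 8 cartilage and bone markers summed to 160 CPM in the first, against 2.28 to 42.3 CPM elsewhere. Stab1, Axl, Trem2, Apoe, F13a1 and Gpnmb were each highest of their PBS group in these 2 libraries, where 16 and 18 of the 32 members were lowest (50% and 56.25%, against 42.6% and 40.3% of all genes), with Axl at 313 and 228 CPM and Apoe at 211 and 159 CPM, and the part of these cells in the members' values was not tested. The labels give no sex. The summed level of 4 Y-linked genes was 145 to 270 CPM in WT PBS replicate 5, WT LPS replicate 11 and Adm+/- PBS replicate 8 and at most 0.416 CPM in the other 9 libraries, which include all Adm+/- LPS lungs. Markers of lung epithelium, 10 genes that include the surfactant proteins, summed to 13762 to 17823 CPM in every library, as a lung label requires. Adm itself was low, at 2.87 to 8.15 CPM, and Adm+/- against WT gave a log2 fold change of −0.50 in PBS (edgeR adjusted p = 0.999) and −0.55 in LPS (edgeR adjusted p = 0.480).

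Levels between genes are compared only as CPM per kilobase of exon. In WT PBS lungs the fatty acid receptor Cd36 had 71.2 ± 25.8 CPM per kilobase (SD, n = 3) and the lipid carrier Apoe 70.1 ± 25, a difference well within the spread of the mice. The TAM receptor Axl followed at 45.3 ± 14.7, the hyaluronan receptor Lyve1 at 41.2 ± 9.03 and the scavenger receptor Stab1 at 30.1 ± 8.96 CPM per kilobase. Axl and Lyve1 differed by less than either SD, and Lyve1 and Stab1 by more than either SD. Endothelial cells and fibroblasts of the lung are also known to use several of these leading genes. Timd4, a receptor for phosphatidylserine on resident macrophages, was lowest at 0.0690 CPM per kilobase, and the folate receptor Folr2 and the lectin Clec10a came next at 0.261 and 0.393.

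**Figure D1:**
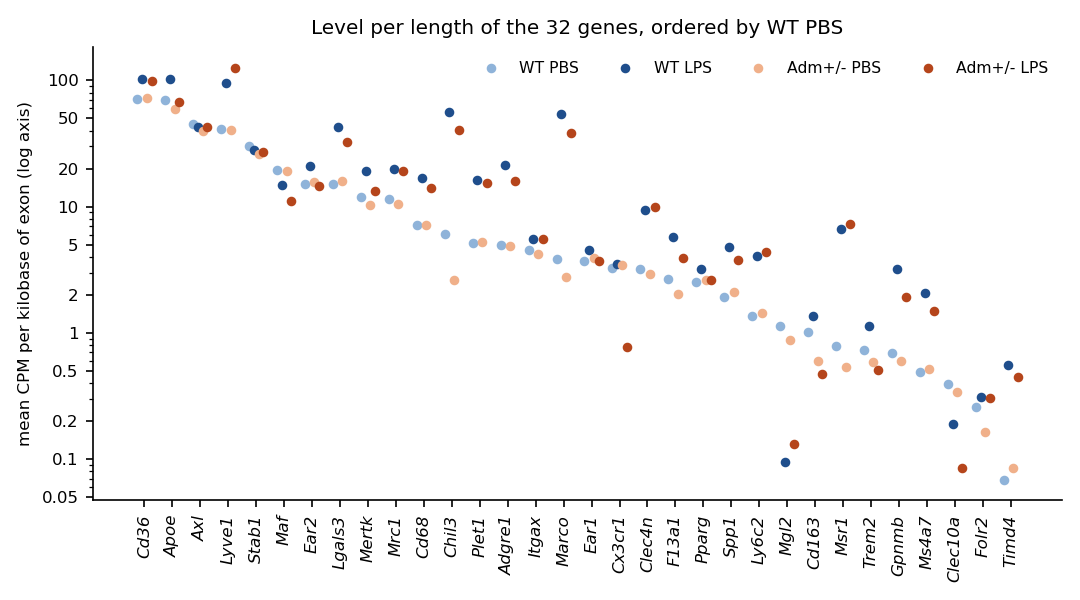
Mean level of each of the 32 genes in CPM per kilobase of exon (vertical log axis), ordered from left to right by the level in WT PBS lungs. Each point is the mean of 3 mice in 1 of the 4 groups, without error bars; Cd36 and Apoe lead at 71.2 and 70.1, and Timd4 is last at 0.0690 in WT PBS.

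LPS raised 15 of the 32 genes in both genotypes, Marco, Chil3 and Msr1 by the largest folds, and lowered Mgl2 in both. In WT mice 16 of 32 rose and 1 fell, where 10.5% of all tested genes rose and 7.09% fell. In Adm+/- mice 15 rose and 4 fell, where 12.8% of all genes rose and 12.2% fell. A rise or fall here means a log2 fold change beyond 0.5 in either direction with a p under 0.05 in edgeR's quasi-likelihood test, after Benjamini-Hochberg adjustment over all tested genes. The median log2 fold change of the 32 was 0.73 in WT and 0.85 in Adm+/- mice, beside 0.01 and −0.01 over all genes. The LPS and PBS libraries did not overlap for 20 members (62.5%) in WT mice, against 36.2% of all genes, and for 24 (75%) in Adm+/- mice, against 53.7%. The members that rose in both genotypes were 15: Mrc1, Lyve1, F13a1, Timd4, Adgre1, Cd68, Ly6c2, Marco, Chil3, Plet1, Gpnmb, Lgals3, Msr1, Clec4n and Ms4a7. Mgl2 fell in both. Clec10a, Cx3cr1 and Maf passed the threshold, as falls, in Adm+/- mice alone and Mertk, as a rise, in WT mice alone, and none of these 4 passed the test of the difference between the genotypes. The other 12 did not pass in either genotype.

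**Figure D2:**
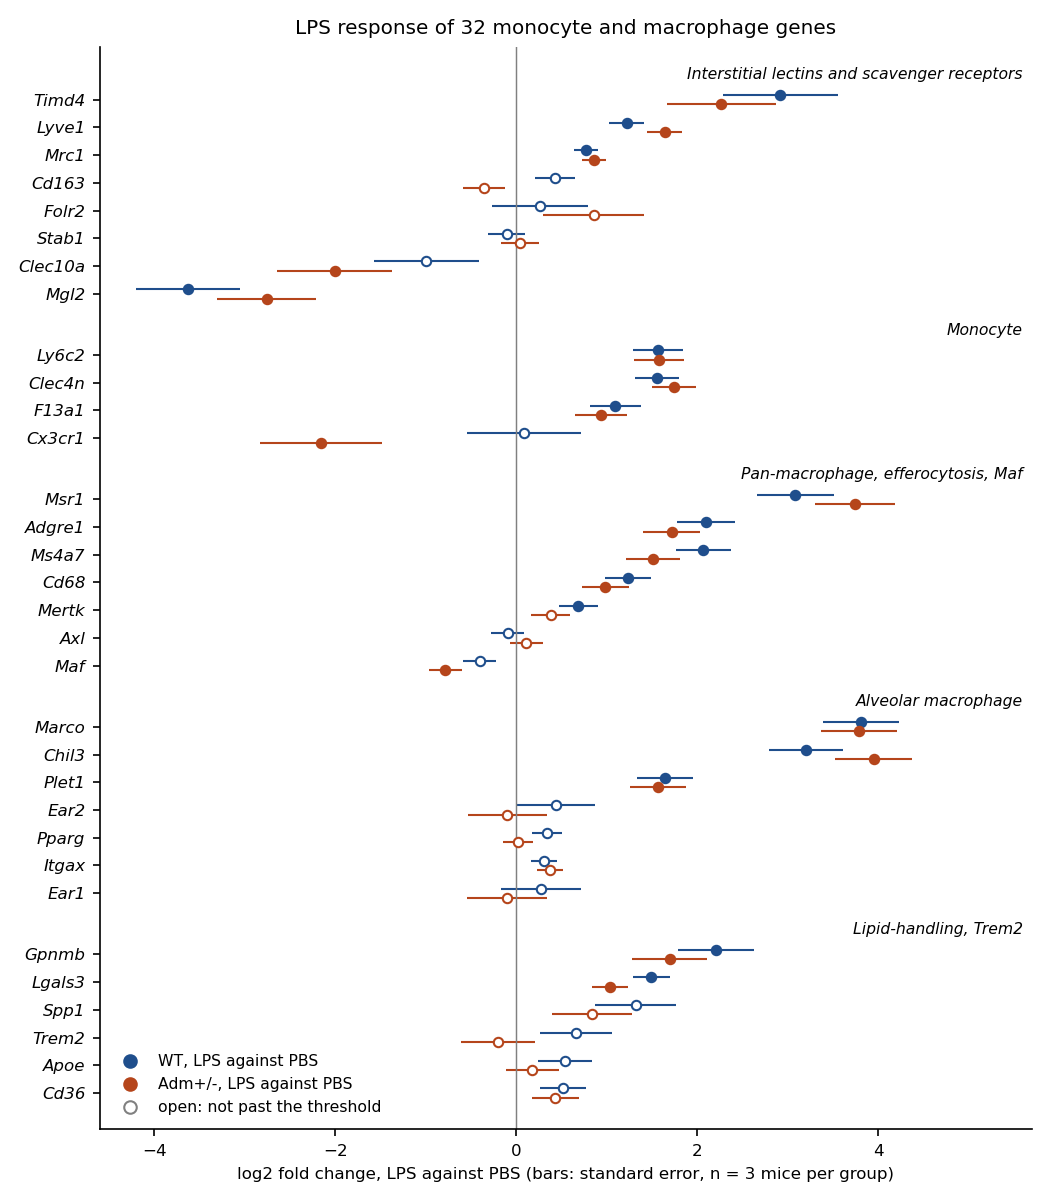
Log2 fold change of LPS against PBS (horizontal axis) for the 32 genes in WT mice (blue) and Adm+/- mice (red), grouped by role; bars are standard errors from edgeR with n = 3 mice per group, and open points did not pass the threshold. Marco, Chil3 and Msr1 lie furthest to the right in both genotypes at 3.09 to 3.95, and Mgl2 lies furthest to the left at −3.63 and −2.76.

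The promoters of the gene that fell most and of the genes that rose most are shown first, since these members moved in opposite directions. Promoters of 26 of the 32 genes were matched in RefSeq (GRCm38.p6, the build also named mm10), 35 in all, each from 250 bases before to 50 after a start of transcription. The windows are Mgl2 at chr11:70130107-70130406 on the plus strand, Marco at chr1:120504975-120505274 and Chil3 at chr3:106167515-106167814, both on the minus strand. They are written 5′ to 3′ on the gene's strand, with matches to the searched motifs in capitals.
Mgl2: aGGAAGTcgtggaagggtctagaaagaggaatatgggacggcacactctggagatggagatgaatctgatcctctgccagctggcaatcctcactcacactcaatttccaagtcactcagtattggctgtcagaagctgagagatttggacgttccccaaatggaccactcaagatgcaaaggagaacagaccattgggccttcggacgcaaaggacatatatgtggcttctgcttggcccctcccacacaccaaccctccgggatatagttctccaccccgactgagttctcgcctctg
Marco: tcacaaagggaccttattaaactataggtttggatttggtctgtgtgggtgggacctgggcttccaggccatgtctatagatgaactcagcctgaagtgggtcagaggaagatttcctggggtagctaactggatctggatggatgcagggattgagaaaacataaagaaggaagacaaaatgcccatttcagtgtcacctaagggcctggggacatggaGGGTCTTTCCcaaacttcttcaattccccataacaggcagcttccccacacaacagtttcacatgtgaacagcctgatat
Chil3: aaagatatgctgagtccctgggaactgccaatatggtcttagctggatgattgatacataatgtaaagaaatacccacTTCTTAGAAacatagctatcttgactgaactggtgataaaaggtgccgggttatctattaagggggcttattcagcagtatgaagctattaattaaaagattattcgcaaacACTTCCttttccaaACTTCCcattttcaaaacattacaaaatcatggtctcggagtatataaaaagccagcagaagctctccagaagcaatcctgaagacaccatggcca

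The motifs were searched on both strands. GGAAGT, the core bound by PU.1, a factor that macrophages need, occurred in 13 of the 35 promoters (37.1%) and in 23.8% of all 32851 promoters of the same length. Mgl2 held 1 match, at bases 2 to 7 of its window, and Chil3 held 2, at bases 191 to 196 and 205 to 210. TTGCNNAA, the C/EBP motif, was in 20% of the members' promoters and 10.8% of all. TGANTCA, a loose form of the AP-1 motif with any base in the middle, was in 20% and 7.81%. Its matches in Trem2, Plet1 and Ms4a7 have A or T in the middle, where the usual motif has C or G. The NF-kappa B search used a loose motif, the capitals in the Marco window with any base at the fourth and the fifth place. It matched Marco alone among the members, at bases 221 to 230, and 1.63% of all promoters. The Marco match has T at the fourth place, where the usual motif has A or G. The STAT motif TTCNNNGAA was in Chil3 alone of the members, at bases 79 to 87, and in 8.3% of all. TGCTGAC, the MAF motif, was found in Timd4 alone and in 4.67% of all. No match overlapped that of another motif, and the pair of Ly6c2 windows overlap and share their PU.1 matches. A match describes letters and is no evidence of binding.

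Among the lectins and scavenger receptors of interstitial macrophages, Mgl2 fell in both genotypes and Clec10a in Adm+/- mice, while Mrc1, Lyve1 and Timd4 rose in both. Mgl2 (ENSMUSG00000040950) encodes a C-type lectin that binds galactose and N-acetylgalactosamine and lies on chromosome 11 of mm10 from 70130329 to 70137550. Its levels were 2.29, 1.99 and 2.90 CPM in WT PBS and 0.0616, 0.374 and 0.159 CPM in WT LPS lungs. Adm+/- lungs had 1.26, 2.37 and 1.91 CPM with PBS and 0.112, 0.545 and 0.178 CPM with LPS. Every LPS lung was below every PBS lung in each genotype. These levels rest on 24 to 70 reads in PBS libraries and 2 to 13 in LPS libraries, so the size of the fall is uncertain. The log2 fold change was −3.63 in WT (standard error 0.57, edgeR adjusted p = 0.00161) and −2.76 in Adm+/- mice (standard error 0.54, edgeR adjusted p = 0.00303). Without WT LPS replicate 10 the WT value was −4.44, and without Adm+/- LPS replicate 2 the Adm+/- value was −3.63. The fall in WT was known when the genes were chosen, so that value is a description.

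Clec10a (ENSMUSG00000000318) is the neighbor and close relative of Mgl2, 18646 bases further along chromosome 11 at 70156197 to 70170834, with no protein-coding gene between them. Its levels were 0.427, 0.825 and 2.16 CPM in WT PBS and 0.401, 0.333 and 0.916 CPM in WT LPS lungs, which overlap. Adm+/- lungs had 0.842, 1.11 and 0.994 CPM with PBS and 0.112, 0.377 and 0.249 CPM with LPS, which do not overlap. The log2 fold change was −1.0 in WT (standard error 0.58, edgeR adjusted p = 0.234) and −2.00 in Adm+/- mice (standard error 0.64, edgeR adjusted p = 0.0335). The difference between these responses, −1.01 on the log2 scale, had a 95% interval of −2.90 to 0.88 (edgeR adjusted p = 0.936). Without WT PBS replicate 5 the WT value was −0.18, and without WT LPS replicate 11 it was −1.56, and neither passed. The Adm+/- call was lost without any 1 of the Adm+/- lungs other than replicate 2, with log2 fold changes of −2.10 to −1.66 and edgeR adjusted p of 0.0561 to 0.120. The pair shares sequence: 12.2% of the 50-base windows of Mgl2 transcripts also occur in Clec10a, and 8.49% of those of Clec10a in Mgl2, and how such reads were counted is not known.

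Lyve1 and Mrc1 rose in both genotypes. Lyve1, which binds hyaluronan and marks both perivascular macrophages and lymphatic endothelium, had 133, 138 and 90.1 CPM in WT PBS and 349, 242 and 250 CPM in WT LPS lungs. Lyve1 in Adm+/- lungs had 102, 113 and 139 CPM with PBS and 419, 339 and 347 CPM with LPS. The groups did not overlap, and Lyve1 rose by a log2 fold change of 1.22 in WT (standard error 0.20, edgeR adjusted p = 0.00174) and by 1.64 in Adm+/- mice (standard error 0.20, edgeR adjusted p = 0.000172). Among 9 lymphatic endothelial markers, 4 rose in each genotype, and their sum went from 242 to 247 CPM in WT PBS to 285 to 330 CPM in WT LPS lungs. It went from 210 to 236 CPM to 285 to 303 CPM in Adm+/- mice, and the part of this in the Lyve1 result was not tested. Mrc1, the mannose receptor CD206, had 71.9, 83.3 and 65.9 CPM in WT PBS and 149, 109 and 119 CPM in WT LPS lungs. In Adm+/- lungs it had 60.3, 75.0 and 65.6 CPM with PBS and 119, 123 and 122 CPM with LPS. The Mrc1 rise was smaller than that of Lyve1, 1.71-fold in WT (log2 standard error 0.13, edgeR adjusted p = 0.00269) and 1.81-fold in Adm+/- mice (log2 standard error 0.13, edgeR adjusted p = 0.000755), with no overlap between groups.

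Timd4 rose 7.56-fold in WT and 4.82-fold in Adm+/- mice from a low level, with means of 0.150 and 0.185 CPM in the PBS groups and 1.21 and 0.976 CPM in the LPS groups. Its libraries held 1 to 65 reads. The WT rise was 4.98-fold without WT LPS replicate 9. The Adm+/- call was lost without Adm+/- PBS replicate 6 (log2 fold change 1.91, edgeR adjusted p = 0.0529) and without Adm+/- LPS replicate 2 (2.02, edgeR adjusted p = 0.0529). Folr2 stayed between 0.158 and 0.709 CPM in all 12 libraries and did not pass (log2 fold changes 0.26 and 0.86). Over the alternative fits these values ran from −0.16 to 0.68 in WT and from 0.60 to 1.49 in Adm+/- mice. Of its 1546 exonic bases, 975 are shared with Gm10602 on the opposite strand, and whether counting used strand is not stated. Stab1, an endocytic receptor that endothelium also carries, lay between 236 and 414 CPM in every library with log2 fold changes of −0.10 and 0.04, and the 95% intervals, −0.56 to 0.35 and −0.41 to 0.49, leave out changes beyond about 1.5-fold.

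Cd163, the receptor for haptoglobin-hemoglobin complexes, was the only member that passed the threshold between genotypes. Cd163 (ENSMUSG00000008845) lies on chromosome 6 from 124304656 to 124330527. After LPS it had 8.17, 5.57 and 8.56 CPM in WT and 2.36, 2.89 and 2.46 CPM in Adm+/- lungs, all below the WT libraries. In LPS the log2 fold change of Adm+/- against WT was −1.53 (standard error 0.23, edgeR adjusted p = 0.00541), which is 2.90-fold lower. Among all genes 1.72% were lower and 0.327% higher in this comparison. With PBS it had 4.12, 6.16 and 6.36 CPM in WT and 3.42, 3.62 and 2.82 CPM in Adm+/- lungs, again without overlap. The PBS log2 fold change was −0.75 (standard error 0.22), which has an unadjusted p of 0.00627 and did not pass over all genes (edgeR adjusted p = 0.999). For LPS against PBS the log2 fold change of Cd163 was 0.43 in WT (edgeR adjusted p = 0.177) and −0.36 in Adm+/- mice (edgeR adjusted p = 0.263), and neither value passed. The difference between the responses was −0.79, with a 95% interval of −1.48 to −0.09 and an edgeR adjusted p of 0.544.

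Skeletal muscle genes also differed between the LPS groups. The 10 muscle markers summed to 441 to 1262 CPM in WT LPS lungs and to 9.31 to 31.7 CPM in the other 3 groups. WT LPS replicate 11, with the lowest muscle sum of its group, had 8.56 CPM of Cd163, replicate 9, with the highest sum, 8.17 CPM, and replicate 10, with a muscle sum of 1191 CPM, 5.57 CPM. In PBS lungs, where the genotype difference in Cd163 did not pass, the muscle sum was 9.31 to 19.8 CPM. The part of muscle in the Cd163 result was not tested. Without single libraries the LPS value of Cd163 ranged from −1.70 to −1.42, and the highest adjusted p was 0.0467 from edgeR. With the Y-linked reads as a covariate it was −1.49 (edgeR adjusted p = 0.0155).

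**Figure D3:**
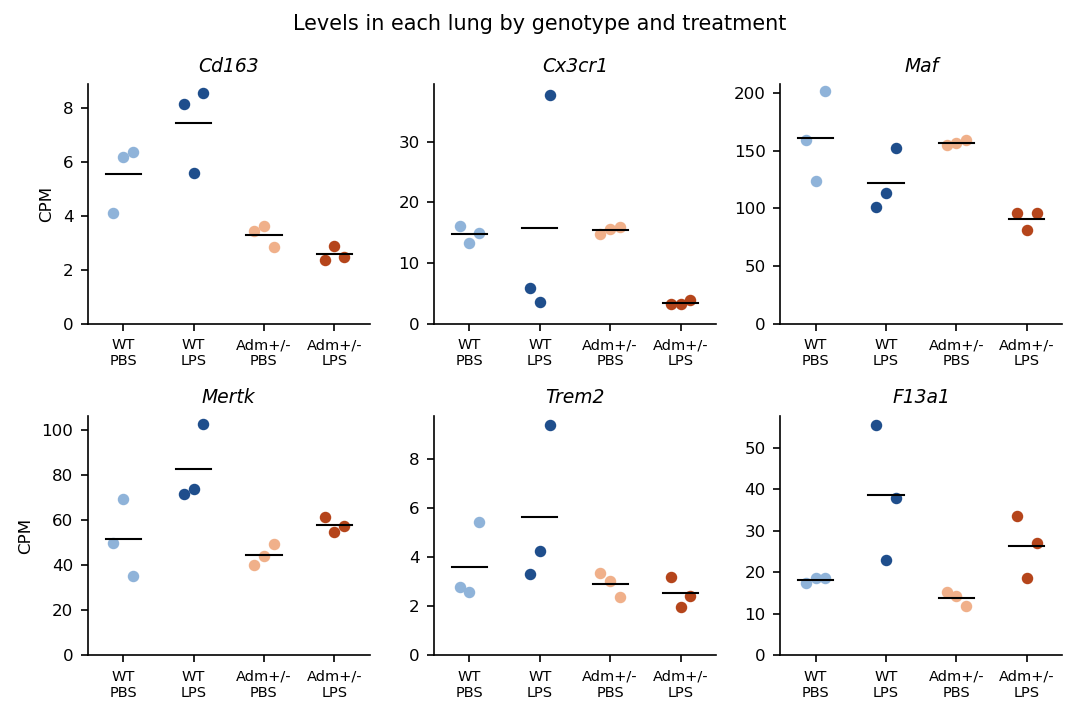
Levels in CPM (vertical axes from 0) of Cd163, Cx3cr1, Maf, Mertk, Trem2 and F13a1 in the 12 lungs; each point is 1 mouse and each line the mean of 3 mice. Cd163 in Adm+/- lungs, at 2.36 to 3.62 CPM, lies below every WT lung at 4.12 to 8.56 CPM, and Cx3cr1 in WT LPS replicate 11 stands at 37.7 CPM, above all other lungs.

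Of the 4 monocyte genes, Ly6c2, Clec4n and F13a1 rose in both genotypes. Ly6c2, the Ly6C antigen of inflammatory monocytes, had 4.0, 4.13 and 3.15 CPM in WT PBS and 13.6, 9.94 and 9.96 CPM in WT LPS lungs. The Adm+/- lungs had 3.31, 6.08 and 2.50 CPM with PBS and 12.0, 11.9 and 11.8 CPM with LPS. These groups did not overlap, and the fold change was 2.96 in WT (log2 standard error 0.28, edgeR adjusted p = 0.00312) and 2.98 in Adm+/- mice (log2 standard error 0.28, edgeR adjusted p = 0.00150). Of the 50-base windows of its transcripts, 14.4% also occur in other genes, 13.9% in Ly6c1, a gene of endothelium. Clec4n, which encodes the fungal receptor dectin-2, had 3.53, 6.94 and 3.21 CPM in WT PBS and 13.3, 12.8 and 14.2 CPM in WT LPS lungs. Its Adm+/- levels were 4.0, 4.46 and 4.10 CPM with PBS and 14.1, 15.1 and 12.9 CPM with LPS. Clec4n rose by a log2 fold change of 1.56 in WT (standard error 0.24, edgeR adjusted p = 0.00149) and by 1.74 in Adm+/- mice (standard error 0.24, edgeR adjusted p = 0.000379), and the LPS lungs were tightly grouped. F13a1, the A subunit of coagulation factor XIII, rose 2.14-fold in WT (edgeR adjusted p = 0.0196) and 1.92-fold in Adm+/- mice (edgeR adjusted p = 0.0273). Without WT LPS replicate 9 its WT log2 fold change was 0.73 (edgeR adjusted p = 0.0986). Its Adm+/- value was 0.73 to 1.0 (edgeR adjusted p = 0.0547 to 0.113) without any 1 of the Adm+/- lungs other than replicate 2.

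Cx3cr1, the fractalkine receptor of patrolling monocytes and resident macrophages, depended on 1 library. It had 16.1, 13.3 and 14.9 CPM in WT PBS and 14.8, 15.6 and 15.9 CPM in Adm+/- PBS lungs. With LPS it had 3.29, 3.18 and 3.92 CPM in Adm+/- lungs, and 5.86, 3.49 and 37.7 CPM in WT lungs. Thus 5 of the 6 LPS lungs were below all PBS lungs, and WT LPS replicate 11 was above them. Over all libraries the log2 fold change was 0.08 in WT (standard error 0.63, edgeR adjusted p = 0.936) and −2.15 in Adm+/- mice (standard error 0.67, edgeR adjusted p = 0.0314). Without WT LPS replicate 11 it was −1.65 in WT (edgeR adjusted p = 0.000875) and −2.15 in Adm+/- mice (edgeR adjusted p = 4.82e-05). Without any 1 of the 6 Adm+/- libraries the Adm+/- value was −2.25 to −2.10 and missed the threshold (edgeR adjusted p = 0.0608 to 0.0924). Without WT LPS replicate 11, the difference between the responses moved from −2.24 (edgeR adjusted p = 0.565) to −0.50 (edgeR adjusted p = 1.0). The same library had Y-linked reads, as did WT PBS replicate 5, with 14.9 CPM of Cx3cr1, and Adm+/- PBS replicate 8, with 15.9 CPM, the highest of its group. With these reads as a covariate the log2 fold change was −0.44 in WT and −1.83 in Adm+/- mice (edgeR adjusted p = 0.0382).

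WT LPS replicate 11 was the highest of its group for 17 of the 32 members, 53.1% of them, against 31.3% of all tested genes. Replicate 10 was the lowest for 22 members, or 68.8%, against 29.7% of all genes. The WT LPS lungs therefore spread widely on these genes: the median SD of log2 CPM was 0.41 over the members and 0.17 over all genes. In Adm+/- LPS lungs it was 0.16 over the members and 0.12 over all genes.

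Of 7 genes that are pan-macrophage markers, efferocytosis receptors or Maf, 5 rose in WT, and 4 rose and Maf fell in Adm+/- mice. Adgre1, which encodes the macrophage marker F4/80, had 16.3, 16.9 and 15.1 CPM in WT PBS and 74.5, 35.8 and 97.1 CPM in WT LPS lungs. In Adm+/- mice it had 14.8, 18.1 and 14.1 CPM with PBS and 67.1, 35.7 and 51.8 CPM with LPS. PBS lungs were alike and LPS lungs varied, with log2 fold changes of 2.1 in WT (standard error 0.32, edgeR adjusted p = 0.00136) and 1.72 in Adm+/- mice (standard error 0.32, edgeR adjusted p = 0.00205). Msr1, the class A scavenger receptor that takes up modified lipoproteins, had 3.69, 8.54 and 2.72 CPM in WT PBS and 67.1, 32.6 and 27.8 CPM in WT LPS lungs. Its Adm+/- levels were 2.84, 4.39 and 3.02 CPM with PBS and 53.9, 41.2 and 44.1 CPM with LPS. Msr1 rose 8.49-fold in WT (log2 standard error 0.43, edgeR adjusted p = 0.000843) and 13.4-fold in Adm+/- mice (log2 standard error 0.44, edgeR adjusted p = 0.000159), with no overlap. Without WT PBS replicate 4 the WT rise of Msr1 was 13.1-fold, and the difference between its responses went from 0.66 to 0.037 on the log2 scale. Ms4a7, a tetraspan membrane protein of macrophages, had 2.29, 1.99 and 2.29 CPM in WT PBS and 6.56, 6.40 and 14.6 CPM in WT LPS lungs. It had 2.16, 2.06 and 2.70 CPM in Adm+/- PBS and 5.83, 7.0 and 6.98 CPM in Adm+/- LPS lungs. The log2 rise of Ms4a7 was 2.07 in WT (standard error 0.31, edgeR adjusted p = 0.00116) and 1.51 in Adm+/- mice (standard error 0.30, edgeR adjusted p = 0.00310), and the groups did not overlap. Cd68, a lysosomal glycoprotein, rose 2.36-fold in WT and 1.98-fold in Adm+/- mice. The Adm+/- call of Cd68 was lost without Adm+/- PBS replicate 6 (log2 fold change 0.77, edgeR adjusted p = 0.0501) and without Adm+/- LPS replicate 1 (0.87, edgeR adjusted p = 0.0538).

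The efferocytosis receptors Mertk and Axl, which take up dying cells through the bridging protein Gas6, moved less. Mertk had means of 51.3 ± 17.2 and 82.5 ± 17.5 CPM (SD, n = 3) in WT PBS and WT LPS lungs and rose 1.61-fold (edgeR adjusted p = 0.0431). In Adm+/- lungs the means were 44.3 ± 4.62 and 57.8 ± 3.39 CPM, a 1.30-fold difference that did not pass (edgeR adjusted p = 0.202). In each genotype every LPS lung was above every PBS lung. Mertk stayed past the threshold in 1 of 12 fits that each left out a library, that without WT PBS replicate 4. The other 11 gave log2 fold changes of 0.47 to 0.77 and edgeR adjusted p of 0.0520 to 0.147. Axl was at 178 to 313 CPM in PBS and 201 to 226 CPM in LPS lungs with log2 fold changes of −0.10 and 0.11, and the WT value was 0.20 without WT PBS replicate 5. Maf, a transcription factor of mature macrophages, had a mean of 162 ± 39.2 CPM in WT PBS and 122 ± 27.1 CPM in WT LPS lungs, which overlap (log2 fold change −0.40, edgeR adjusted p = 0.131). It passed in WT without WT PBS replicate 4 (−0.56, edgeR adjusted p = 0.0434) and without WT LPS replicate 11 (−0.59, edgeR adjusted p = 0.0405). In Adm+/- lungs its means were 157 ± 2.39 CPM with PBS and 91.2 ± 8.57 CPM with LPS, which do not overlap, and Maf fell by 0.78 on the log2 scale (edgeR adjusted p = 0.00750). The difference between these Maf responses was −0.38 on the log2 scale, with a 95% interval of −0.94 to 0.18. Exons of Maf share 440 bases with Gm15655 on the opposite strand, those of Stab1 112 with Nt5dc2, of Cx3cr1 78 with Gm33858 and of F13a1 74 with Gm30489.

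The alveolar macrophage genes split: Marco, Chil3 and Plet1 rose, and Pparg, Ear1, Ear2 and Itgax did not pass in either genotype. Marco, a scavenger receptor for bacteria and inhaled particles, lies on chromosome 1 from 120474538 to 120505024. It had 6.02, 8.64 and 7.54 CPM in WT PBS and 174, 65.7 and 71.2 CPM in WT LPS lungs. Marco in Adm+/- lungs had 7.68, 4.49 and 3.86 CPM with PBS and 87.7, 49.5 and 82.1 CPM with LPS. The lowest LPS lung was thus far above the highest PBS lung, and the log2 fold change was 3.81 in WT (standard error 0.42, edgeR adjusted p = 0.000236) and 3.79 in Adm+/- mice (standard error 0.42, edgeR adjusted p = 0.000122). The WT rise of Marco was 9.23-fold without WT LPS replicate 9, which still passed. The Marco responses differed by −0.02, with a 95% interval of −1.25 to 1.20. Chil3, a chitinase-like protein also called Ym1 that alveolar macrophages and neutrophils secrete, lies on chromosome 3 from 106147554 to 106167564. It had 14, 11.4 and 4.20 CPM in WT PBS and 143, 60.7 and 71.0 CPM in WT LPS lungs. Its Adm+/- levels were 4.16, 4.70 and 3.94 CPM with PBS and 66.0, 55.3 and 76.7 CPM with LPS. Chil3 rose by a log2 fold change of 3.20 in WT (standard error 0.41, edgeR adjusted p = 0.000560) and by 3.95 in Adm+/- mice (standard error 0.43, edgeR adjusted p = 0.000107). In PBS lungs it was −1.22 on the log2 scale in Adm+/- against WT mice, with overlap at WT PBS replicate 5, and did not pass (unadjusted p = 0.0122, edgeR adjusted p = 0.999).

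Plet1, a surface protein of alveolar macrophages and of some epithelium, had 11.8, 12.8 and 5.50 CPM in WT PBS and 41.4, 25.3 and 27.7 CPM in WT LPS lungs. Its Adm+/- levels were 6.94, 12.7 and 10.9 CPM with PBS and 31.2, 27.3 and 32.1 CPM with LPS. The groups did not overlap, with a rise of 3.13-fold in WT (log2 standard error 0.31, edgeR adjusted p = 0.00415) and 2.96-fold in Adm+/- mice (log2 standard error 0.31, edgeR adjusted p = 0.00289). Neutrophil genes moved with this set: 12 markers summed to 40.8 to 186 CPM in PBS and 1607 to 2966 CPM in LPS lungs. The part of neutrophils in the rise of Chil3, which they also express, was not tested. Of the 50-base windows of Chil3 transcripts, 26.9% also occur in other genes, 16.9% in Chil4. Exons of Plet1 share 261 bases with Plet1os on the opposite strand.

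Ear1 and Ear2, ribonucleases of the eosinophil-associated family, did not follow Marco. Ear2 had 17.6, 12.0 and 3.27 CPM in WT PBS and 13, 13.3 and 18.6 CPM in WT LPS lungs. In Adm+/- mice it had 7.36, 13.5 and 12.8 CPM with PBS and 9.65, 10.7 and 11.3 CPM with LPS. The groups overlapped, the lowest values being those of the libraries that stood apart, and the log2 fold change was 0.44 in WT (standard error 0.43, edgeR adjusted p = 0.488) and −0.10 in Adm+/- mice (standard error 0.43, edgeR adjusted p = 0.892). Ear1 had 3.88, 3.20 and 0.988 CPM in WT PBS and 3.21, 3.08 and 3.66 CPM in WT LPS lungs. Its Adm+/- levels were 1.53, 3.38 and 3.70 CPM with PBS and 2.58, 3.69 and 1.85 CPM with LPS. Ear1 likewise overlapped, with log2 fold changes of 0.28 in WT (standard error 0.44, edgeR adjusted p = 0.678) and −0.10 in Adm+/- mice (standard error 0.44, edgeR adjusted p = 0.887). Both genes are uncertain, since 57.4% of the 50-base windows of Ear1 and 41.5% of those of Ear2 occur in other genes or pseudogenes of the family. Pparg, the nuclear receptor itself, lay between 6.37 and 9.88 CPM with log2 fold changes of 0.34 and 0.02. Its LPS lungs were all above its PBS lungs in WT mice and overlapped them in Adm+/- mice. Itgax, the integrin CD11c, lay between 18.8 and 32.3 CPM with log2 fold changes of 0.30 and 0.37. In each genotype its LPS lungs were all above its PBS lungs. Neither Pparg nor Itgax passed.

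**Figure D4:**
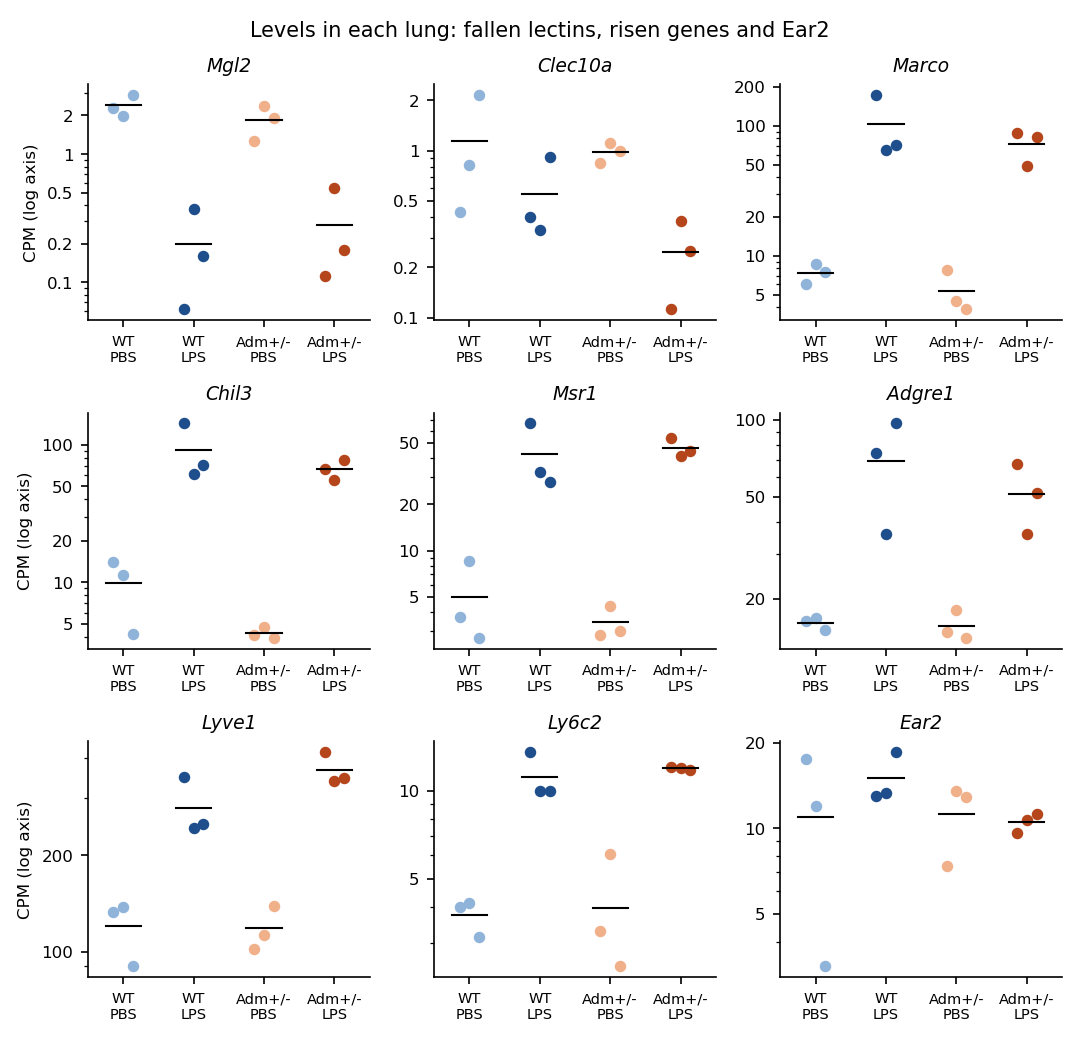
Levels in CPM (vertical log axes) of 9 genes in the 12 lungs; each point is 1 mouse and each line the mean of 3 mice. Mgl2 in LPS lungs, at 0.0616 to 0.545 CPM, lies below every PBS lung at 1.26 to 2.90 CPM, while Marco, Chil3, Msr1, Adgre1, Lyve1 and Ly6c2 lie above their PBS lungs and Ear2 overlaps.

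In the lipid-handling group, Lgals3 and Gpnmb rose in both genotypes. Lgals3, which encodes galectin-3, had 31.9, 28.8 and 23.4 CPM in WT PBS and 98.6, 54.0 and 84.5 CPM in WT LPS lungs. Its Adm+/- levels were 28.0, 34.4 and 26.5 CPM with PBS and 62.8, 56.3 and 63.5 CPM with LPS. No LPS lung reached down to the PBS range, and Lgals3 rose 2.82-fold in WT (log2 standard error 0.20, edgeR adjusted p = 0.000772) and 2.05-fold in Adm+/- mice (log2 standard error 0.20, edgeR adjusted p = 0.00271). Gpnmb, a lysosomal glycoprotein of phagocytes, had 4.16, 3.98 and 5.50 CPM in WT PBS and 16.6, 10.2 and 36.1 CPM in WT LPS lungs, and rose 4.63-fold in WT and 3.24-fold in Adm+/- mice. Its WT rise was 2.96-fold without WT LPS replicate 11. Spp1, which encodes osteopontin, was higher in every LPS lung than in the PBS lungs of the same genotype and did not pass (log2 fold changes 1.32 and 0.84, edgeR adjusted p = 0.0543 and 0.172), and 15.1 CPM in WT LPS replicate 11 stood above the 4.12 to 8.30 CPM of the other LPS lungs. Spp1 passed in WT without WT LPS replicate 9 (log2 fold change 1.59, edgeR adjusted p = 0.0488) or replicate 10 (1.63, edgeR adjusted p = 0.0233), and in Adm+/- mice without WT LPS replicate 11 (0.84, edgeR adjusted p = 0.0247). The WT value did not pass without WT LPS replicate 11, and its lowest log2 fold change over the alternative fits was 0.46. The lipid sensor Trem2 had log2 fold changes of 0.66 in WT and −0.20 in Adm+/- mice, Apoe 0.54 and 0.18, and Cd36 0.52 and 0.43, and none passed. Apoe passed in WT mice without both libraries that stood apart.

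Genotype was compared directly in 3 ways, with the control and LPS groups shared between the comparisons. No member passed for the difference between the LPS responses, where 0.145% of all genes did. The adjusted p-values of the 32 members ran from 0.544 to 1.0 in edgeR, and 2 members, Cd163 and Cx3cr1, had an unadjusted p below 0.05, beside 7.85% of all genes. Between genotypes in PBS no member passed, and none of the 15885 genes did (0%). Cd163 and Chil3 had an unadjusted p below 0.05 there, as did 344 genes in all. Cd163 and F13a1 did not overlap between the PBS groups, 6.25% of the members against 4.99% of all genes. Between genotypes in LPS, 26 of 32 members were on the lower side in Adm+/- mice and the median log2 fold change was −0.34, beside −0.0042 over all genes, but Cd163 alone passed. Without WT LPS replicate 9 the count on the lower side was 19 and the median −0.16, without replicate 11 they were 23 and −0.19, and without replicate 10 they were 26 and −0.53. The libraries did not overlap for 6 members (18.75%), against 24.6% of all genes. All 6 were lower in Adm+/- lungs: Cd163, Mertk, Pparg, Ear2, Trem2 and Maf. Trem2 had 3.30, 4.24 and 9.40 CPM in WT LPS and 3.18, 1.97 and 2.42 CPM in Adm+/- LPS lungs, a log2 fold change of −1.15 that did not pass (edgeR adjusted p = 0.187).

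Other genes of the same cells and pathways were read as counts. Of 21 core macrophage and monocyte genes, 19 rose in WT and 18 in Adm+/- mice, none fell, and their medians were 1.49 and 1.23 on the log2 scale. Lyz2 (lysozyme) rose by 0.63 and 0.64, and Mpeg1 (perforin-2) by 1.19 and 0.85. Csf1r, the receptor for macrophage colony-stimulating factor, rose by 0.68 in WT and had 0.44 in Adm+/- mice, which did not pass. The summed level of the 21 genes was 1572 to 1691 CPM in WT PBS, 2419 to 3317 CPM in WT LPS, 1380 to 1715 CPM in Adm+/- PBS and 2649 to 3146 CPM in Adm+/- LPS lungs. Neutrophil markers rose in the same lungs, and the part of neutrophils in these 21 genes was not tested. Of 15 further alveolar macrophage genes tested, 4 rose in WT and 7 in Adm+/- mice. Of 16 further monocyte genes, 9 rose in WT and 7 in Adm+/- mice, and of 10 further genes of resident interstitial macrophages 2 and 1 rose, Gas6 being the only one that fell, in Adm+/- mice.

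Some genes of the pathway by which IL-4 and IL-13 act, which is known to induce Mgl2, Clec10a and Chil3 in macrophages, rose after LPS. Their RNA levels alone do not show whether the pathway was more active. Of its 18 tested genes, 8 rose and 1 fell in WT, and 10 rose in Adm+/- mice. The shared receptor chain Il4ra rose by 1.02 in WT and 2.20 in Adm+/- mice on the log2 scale, and the kinase Jak1 by 0.51 and 0.98. In the TAM receptor and efferocytosis pathway 2 of 17 rose and 2 fell in WT and 3 rose and 4 fell in Adm+/- mice, and the lipid exporter Abca1 rose by 0.74 and 1.08. Of 10 scavenger receptors outside the members, 5 rose in WT and 7 in Adm+/- mice, and 1 (Stab2) fell in each. Classical activation genes, such as the itaconate enzyme Acod1, rose in 9 of 15 in WT and 13 of 15 in Adm+/- mice, with medians of 2.79 and 3.54 on the log2 scale.

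Markers of other cells were read beside these results. Of 11 neutrophil genes tested, 10 rose in WT and all 11 in Adm+/- mice. Of 10 dendritic cell genes, which include cells that can carry Mgl2 and Clec10a, none rose and 1 (Itgae) fell in WT, and 2 rose and 1 fell in Adm+/- mice. The sum of all 12 dendritic cell genes on the list was 284 to 378 CPM in all libraries. Of 12 vascular endothelial genes 2 fell in WT, and 1 rose and 3 fell in Adm+/- mice. Of 10 fibroblast genes 2 rose in WT, and 1 rose and 1 fell in Adm+/- mice. Of 6 liver genes 3 rose in WT and 2 in Adm+/- mice, 1 of 4 fat genes rose in Adm+/- mice, and none of 6 cartilage and bone genes passed in edgeR. All 8 muscle genes tested rose in WT and 1 of 8 in Adm+/- mice, and in LPS lungs all 8 were lower in Adm+/- than in WT mice. Of the 10 lung epithelial genes 1 rose in WT and 2 in Adm+/- mice. Between genotypes in LPS lungs, genes of the lists named above that passed included Cd14 and Ccl22, which were higher in Adm+/- mice. Eno3 and Arg1 passed as lower. After LPS, Arg1 passed as a rise in WT mice alone. Eno3, from the monocyte list, was also lower for the difference between the LPS responses, as were 5 of the 8 muscle genes tested. The part of other cell types in these genes and in the members' results was not tested.

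**Figure D5:**
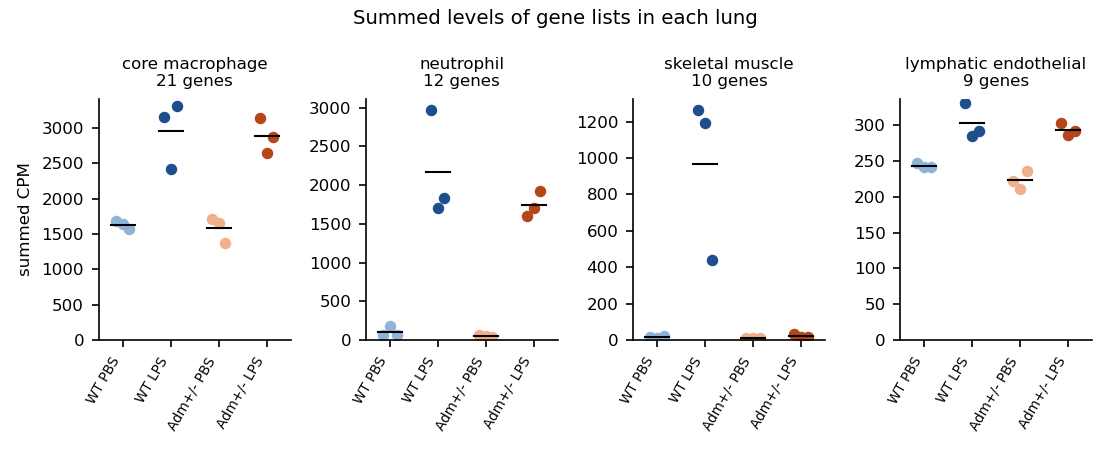
Summed CPM (vertical axes from 0) of 4 marker lists in the 12 lungs; each point is 1 mouse and each line the mean of 3 mice. Core macrophage and neutrophil sums are higher in all LPS lungs than in all PBS lungs, and the skeletal muscle sum, 441 to 1262 CPM, is high only in the 3 WT LPS lungs.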

How the data were processed

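Bulk RNA sequencing of 12 whole mouse lungs was used. The kit kept strand, and ribosomal RNA had been depleted. Per the labels and the study's methods, the authors used Trim Galore for trimming, HISAT2 for alignment to mm10 and featureCounts for counts over Gencode genes; the strand option of the counting is not given in the sources used here. The deposited table holds raw whole-number counts for 52550 genes, without normalization. Total counts were 22382535 to 38062873 per library, and reads carry no molecular identifiers.

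The 21950 protein-coding genes were filtered with filterByExpr (15885 kept), scaled by TMM and fitted in edgeR 4.0.16 (R 4.3.3) with glmQLFit and glmQLFTest, 1 coefficient per group over all 12 libraries with 8 residual degrees of freedom. The tests were two-sided and a call needed a Benjamini-Hochberg adjusted p below 0.05 over all tested genes and an absolute log2 fold change above 0.5. Standard errors are the log2 fold change divided by the square root of F. The 5 comparisons were LPS against PBS in each genotype, the difference between them, and Adm+/- against WT in PBS and in LPS. CPM values use TMM library sizes. Alternatives were RLE size factors, DESeq2 1.42.0, limma-voom 3.58.1, glmTreat, no filter, all annotated genes, the libraries of the comparison alone, and leaving out libraries; the covariate for Y-linked reads and the alternatives for the LPS genotype values were chosen after the data had been seen. The code was tested on simulated data.

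Positions, exon lengths and shared 50-base windows came from Gencode M21 (99.7% of genes matched) and promoters from RefSeq GRCm38.p6. The members and all gene lists were chosen with earlier results of these data known. Values by library are given for Mgl2, Clec10a, Ear1, Ear2, the 12 members of smallest p over both LPS comparisons, and the 2 ranked first by p in every other comparison; of the other lists, counts and some of the 3 most abundant genes. Trem2, Maf, Mertk, F13a1, Gpnmb, Spp1, Axl and Apoe are given outside this rule, after their values were seen. So are Acod1, Arg1, Gas6, Stab2, Itgae, Cd14, Ccl22 and Eno3. Each mouse is 1 replicate. All 12 within-group library pairs differed beyond sampling noise (chi-square over its degrees of freedom, 9.87 to 110.5).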

Additional observations from a re-analysis of the deposited data

Results flagged for a closer look

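Cd163 had LPS lungs above the PBS mean in all 3 WT mice, by 0.03 to 0.64 on the log2 scale, and below it in all 3 Adm+/- mice, by −0.46 to −0.17. These responses differed by −0.79, which missed the threshold (edgeR adjusted p = 0.544).

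Axl had LPS lungs below the PBS mean in all 3 WT mice, by −0.07 to −0.03, and above it in all 3 Adm+/- mice, by 0.02 to 0.19. The difference was 0.21 (edgeR adjusted p = 0.992), and these values are small beside the spread of Axl in WT PBS lungs, 178 to 313 CPM. The WT direction rests on WT PBS replicate 5, without which the WT log2 fold change was 0.20.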

How the results depend on the processing

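The number of members past the threshold kept within 1.5 times its value for both LPS comparisons under all alternatives: without single libraries it was 16 to 18 in WT mice and 14 to 20 in Adm+/- mice (14 without Adm+/- PBS replicate 6). It was 0 throughout for the difference between the responses and for Adm+/- against WT in PBS. For Adm+/- against WT in LPS it was 1, 2 with DESeq2, which added Cx3cr1 (adjusted p = 0.0453), and 1 to 2 without single libraries (2 without WT LPS replicate 10, Cx3cr1 again). In the main fit the log2 fold change of Cx3cr1 in this comparison was −2.17 (edgeR adjusted p = 0.130). It was −0.44 without WT LPS replicate 11, which did not pass. Over the alternatives other than single libraries, 448 of the values of genes that the rule gives by library kept direction and call, 4 lost their call, 1 gained it and 7 changed direction. The calls lost were Mrc1 in WT and Clec10a and Cx3cr1 in Adm+/- mice with glmTreat, and Cx3cr1 in Adm+/- mice without both libraries that stood apart. Among other genes, Mertk in WT lost its call with glmTreat, with the libraries of the comparison alone, without both libraries that stood apart and with the Y-linked covariate. F13a1 lost it in WT with glmTreat and with the libraries of the comparison alone, and in Adm+/- mice with glmTreat and the covariate, and Cd68 and Maf in Adm+/- mice with glmTreat. Calls gained were Spp1 in WT with DESeq2 and in Adm+/- mice with the libraries of the comparison alone, and Apoe in WT without both libraries that stood apart. Of the values under that rule, those that changed direction were, on the log2 scale, Ear1 in WT at −0.10 without both libraries that stood apart, Cx3cr1 in WT at −0.70 with limma-voom and −0.44 with Y-linked reads as a covariate, and 4 values of the difference between responses: Marco at 0.14 with limma-voom and 0.30 without both libraries, Ly6c2 at −0.13 with the covariate, and Plet1 at 0.0016 without both libraries. None of these 7 was a call in either fit. Without single libraries, values under the rule that crossed 0 ranged from −0.10 to 0.63 for Ear1 and −1.65 to 0.55 for Cx3cr1 in WT mice, and from −0.40 to 0.12 for Ear1 and −0.33 to 0.056 for Ear2 in Adm+/- mice. Other members whose values crossed 0, none of them a call, were Folr2 (−0.16 to 0.68), Stab1 (−0.30 to 0.16) and Axl (−0.25 to 0.20) in WT and Stab1 (−0.052 to 0.16) and Pparg (−0.10 to 0.17) in Adm+/- mice. For the difference between responses they ranged from −0.0015 to 1.68 for Mgl2, −0.74 to 0.0022 for Ear1, −0.26 to 0.58 for Marco, −0.24 to 0.38 for Clec4n, −0.012 to 0.23 for Mrc1, −0.24 to 0.48 for Ly6c2 and −0.29 to 0.21 for Plet1. The Cx3cr1 value in WT mice became a call only without WT LPS replicate 11, and the causes were not tested. The low reads of Mgl2, Clec10a, Timd4 and Folr2 limit their folds. No paired analysis was possible because no library number is shared between groups.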
